A study of Mus musculus with 8 samples.

Results

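The proteasome genes of mouse skeletal muscle are described here: the subunits of the core and regulatory particles, the activators, 1 inhibitor and the assembly chaperones. They were taken by symbol, as every gene named on the array whose symbol is Psm followed by a letter from a to g and a number. That rule gave 48 genes of the 20145 genes named on the array, and used no measured value. Of these, 46 were tested among 12739 tested genes, and each of the 46 was well above background on all 8 arrays. The other 2 were well above background on no array: Psma8, the alpha subunit of the testis proteasome, and Psmb11, the catalytic subunit of the thymus proteasome.

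RNA came from the extensor digitorum longus (EDL), a fast hindlimb muscle, of male C57BL/6 mice, 4 in each of 2 groups. The group called PCKO carried a tamoxifen-inducible, skeletal-muscle-specific knockout of Ep300 and Crebbp, which encode the related acetyltransferases and transcriptional coactivators p300 and CBP. The genotype field of those mice names CBP alone, and the labels do not name the promoter that drives the recombinase. The other group was wildtype (WT). Tamoxifen by gavage for 5 days, begun at 13 to 15 weeks of age, is described for the knockout mice, and the labels do not say whether WT mice received it. Muscles were excised from mice fasted for 4 h, on the day that followed the final gavage. Each mouse gave 1 single-colour array, and the comparison asks which transcripts differed within days of the knockout.

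The proteasome is the protease that degrades proteins tagged with ubiquitin. Its core is a barrel of alpha and beta rings whose catalytic beta subunits face inward, and a regulatory particle, made of a base with a ring of ATPases and a lid, binds ubiquitin chains, removes them and threads the substrate into the core. In immune cells and under interferon the catalytic subunits Psmb5, Psmb6 and Psmb7 are replaced by Psmb8, Psmb9 and Psmb10, which gives the immunoproteasome. Dedicated chaperones build the particles without being part of the finished enzyme. In muscle, the ubiquitin-proteasome system degrades contractile proteins during atrophy.

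Values are given as levels, the log2 signal of a probe minus its array's 75th percentile, and as differences, the PCKO mean minus the WT mean of those levels, with the standard error. A level says nothing across genes, since each probe has its own sensitivity. The 2 targeted genes were lower in the PCKO group, Ep300 by a difference of -1.44 ± 0.11 and Crebbp by -0.70 ± 0.11, and neither gene's groups overlapped. The labels do not say which exons were deleted, so whether these probes lie inside the deletion was not tested. Under the spike-in scaling described next, Ep300 stayed lower (-0.76, called) and Crebbp stood at -0.018, not called. All 8 muscle fibre markers were well above background on all 8 arrays, and all 8 were lower in PCKO muscle (6 of 8 under spike-in scaling). Between 24207 and 25673 probes lay well above background on an array, none was saturated, and arrays of 1 group correlated at 0.989 to 0.993 against 0.911 to 0.925 across groups. Fewer cells of a type and less RNA per cell cannot be told apart in RNA from whole muscle.

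How the arrays were put on 1 scale changed the counts of proteasome genes called, so each group of genes is given under 3 scalings. The 75th percentile of an array, set against the mean of 7 spike-in probes, was 0.68 log2 units higher in PCKO than in WT muscle (-2.80 ± 0.33 against -3.48 ± 0.30, SD, n = 4, exact permutation p = 0.029, two-sided, the smallest p that 4 against 4 allows). Under spike-in scaling every difference is therefore 0.68 higher than under percentile scaling. PCKO replicate 4 had the lowest spike-in signal, at 9.69 log2 units against at least 10.2 on the other arrays, and 120 probes left out as outliers against 3 to 34. Quantile scaling moved bright probes upward and left dim ones in place. Over the 46 genes the move from percentile to quantile scaling ran from -0.017 to 0.597 log2 units, with a median of 0.444 in the brighter 23 genes and 0.039 in the dimmer 23. In the plot of that move against level the genes lie along 1 rising curve, whichever way they were called.

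**Figure D1:**
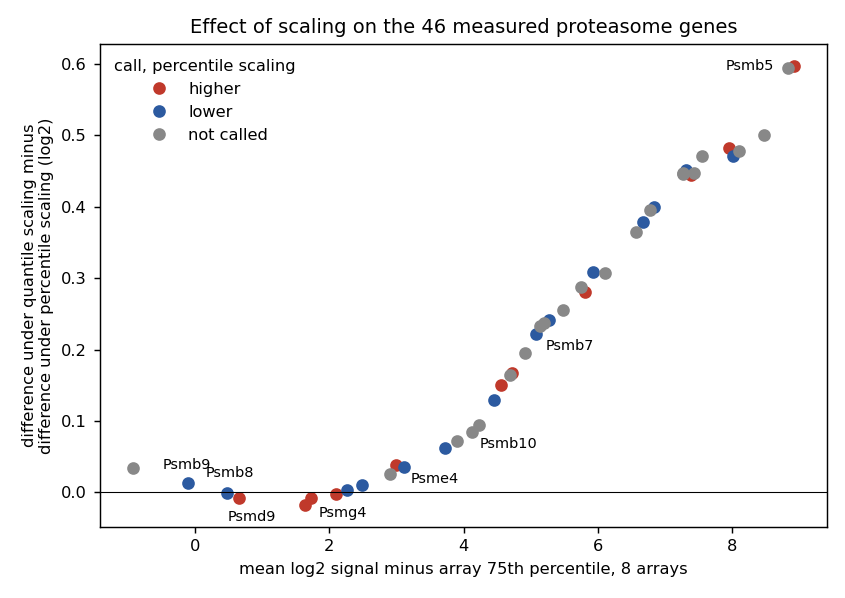
Each point is 1 of the 46 measured proteasome genes. The horizontal axis is its mean level over the 8 arrays (log2 signal minus array 75th percentile) and the vertical axis the log2 difference under quantile scaling minus that under percentile scaling, coloured by the call under percentile scaling. The move is near 0 for dim probes and reaches 0.597 for the brightest, Psmb5.

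Under percentile scaling 11 of the 46 were higher in PCKO muscle and 14 lower (limma, adjusted p under 0.05), which is 23.9% and 30.4% of them. Of all 12739 genes 38.3% were called higher and 32.7% lower. The median difference was -0.016 over the proteasome genes and 0.056 over all genes. The SD of the differences was 0.48 against 1.17 for all genes, and 3 of 46 (6.52%) differed at least 2-fold against 26% of all genes (19.6% against 43.4% under spike-in scaling). Of the 46 genes, 9 were higher and 14 lower without overlap between the 4 arrays of each group. Of all 12739 genes, 36.1% were higher and 29.7% lower without overlap.

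The balance of calls turned with the scaling. Quantile scaling called 27 proteasome genes higher and 7 lower, where it called 43.3% of all genes higher and 29% lower. In either direction it called 73.9% of the proteasome genes and 72.2% of all genes, against 54.3% and 71% under percentile scaling. Spike-in scaling called 24 higher and 0 lower, where it called 54% of all genes higher and 9.45% lower. The medians were 0.28 under quantile and 0.67 under spike-in scaling, against 0.15 and 0.74 for all genes. Set against all genes, the proteasome median thus lay at -0.072, 0.13 and -0.072 under percentile, quantile and spike-in scaling. Spike-in p-values carry array error that all genes share. The moderated test there gave every proteasome gene the same standard error, 0.30, so a call depended only on the size of the difference. With each gene's own variance the counts were 18 higher and 1 lower, the lower one being Psme4. Of all 12739 genes, 6180 were then higher and 968 lower. Without PCKO replicate 4 the proteasome counts were 14 higher and 1 lower, Psmb9, against 5841 and 1275 of all genes.

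The 11 genes called higher under percentile scaling were called higher under all 3 scalings. They were the core subunits Psmb4 and Psmb5, the lid subunit Psmd3, the activator subunits Psme1 and Psme2, and the chaperones Psmd5, Psmd9, Psmd10, Psmg1, Psmg3 and Psmg4. No gene was called lower under all 3. Of the 14 called lower under percentile scaling, 7 were also lower under quantile scaling: Psme4, Psmb9, Psmb8, Psmd8, Psmd6, Psme3 and Psmd11. Under spike-in scaling 4 of the 46 kept a negative difference, Psme4, Psmb9, Psmb8 and Psmd8.

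**Figure D2:**
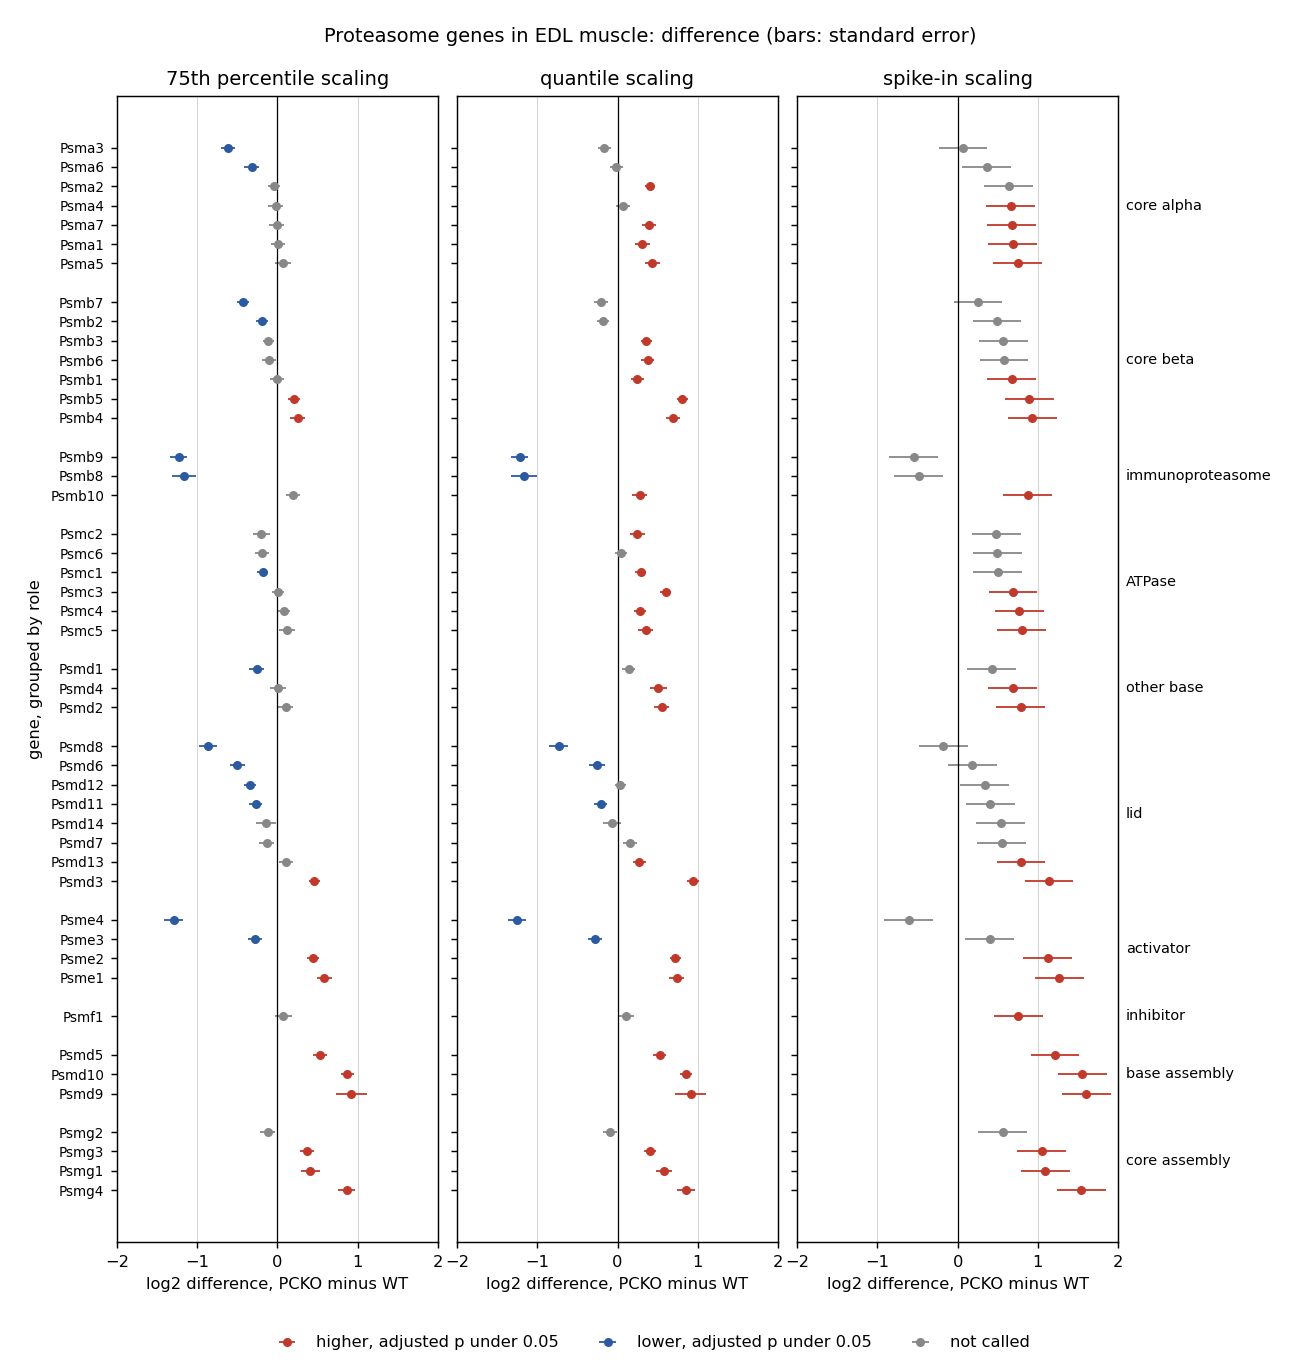
Log2 difference (PCKO minus WT, 4 mice a group) of the 46 measured proteasome genes under 3 scalings, grouped by role, with standard errors as bars; red and blue mark genes called higher and lower at an adjusted p under 0.05 (limma). The 11 genes red in the left panel are red in all 3 panels, and the 14 blue ones become 7 and then 0.

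The alpha ring, which forms the outer gate of the core, was near 0 apart from 2 genes. Of 7 alpha subunits, 0 were higher and 2 lower under percentile scaling (all genes 38.3% and 32.7%), with a median of -0.023. Under quantile scaling 4 were higher and 0 lower (all genes 43.3% and 29%). Under spike-in scaling the counts were again 4 and 0 (all genes 54% and 9.45%). Psma3 stood at 7.54, 7.67, 7.71 and 7.61 in the 4 WT mice and at 7.15, 7.01, 7.08 and 6.83 in the PCKO mice. Every PCKO level of Psma3 was below every WT level. Its difference was -0.61 ± 0.09 (limma adjusted p = 2.71e-04) under percentile scaling, -0.16 under quantile scaling (adjusted p = 0.11) and 0.068 under spike-in scaling (adjusted p = 0.86). Psma6 was also lower without overlap, by -0.32 ± 0.09 (limma adjusted p = 0.014), and stood at -0.013 under quantile and 0.36 under spike-in scaling, neither called. The other 5 alpha subunits lay between -0.044 and 0.068, none called under percentile scaling.

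The beta ring holds the catalytic sites. Of its 7 constitutive subunits 2 were higher and 2 lower under percentile scaling (all genes 38.3% and 32.7%), with a median of -0.10. The counts were 5 and 0 under quantile (all genes 43.3% and 29%) and 3 and 0 under spike-in scaling (all genes 54% and 9.45%). Psmb5, the chymotrypsin-like catalytic subunit, read 8.77, 8.84, 8.85 and 8.86 in WT and 9.16, 8.97, 8.98 and 9.05 in PCKO muscle. The groups of Psmb5 did not overlap, at a difference of 0.21 ± 0.07 (limma adjusted p = 0.026). A second Psmb5 probe gave 0.48, and the difference was 0.81 under quantile and 0.89 under spike-in scaling. Leaving out WT replicate 1, PCKO replicate 1 or PCKO replicate 4 ended the call of Psmb5, with an adjusted p of at most 0.073.

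Of the other constitutive catalytic subunits, Psmb7 was lower and Psmb6 was not called. Psmb6, the caspase-like subunit, read 8.15, 7.99, 8.27 and 8.21 in WT and 8.13, 7.96, 8.11 and 8.01 in PCKO muscle. Those groups overlapped, at -0.10 ± 0.08 (limma adjusted p = 0.29). Psmb7, the trypsin-like subunit, read 5.37, 5.31, 5.38 and 5.14 in WT and 4.89, 4.97, 4.83 and 4.81 in PCKO muscle. All 4 PCKO levels of Psmb7 lay under the lowest WT level, at -0.43 ± 0.08 (limma adjusted p = 0.0013). It missed the threshold under quantile scaling (-0.21, adjusted p = 0.061) and turned positive under spike-in scaling (0.25, adjusted p = 0.47).

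Of the structural beta subunits, Psmb4 was higher and Psmb2 lower, both close to the threshold. Psmb4 read 7.36, 7.26, 7.28 and 7.16 in WT and 7.69, 7.40, 7.63 and 7.35 in PCKO muscle. Its groups overlapped by 1 array, at 0.25 ± 0.10 (limma adjusted p = 0.045), and the call was lost without WT replicate 2, 3 or 4 or PCKO replicate 1 or 3 (adjusted p up to 0.12), and with the slide row as a block (adjusted p = 0.055). Psmb2 differed by -0.19 ± 0.075 (limma adjusted p = 0.045) without overlap, was not called under quantile (-0.18) or spike-in scaling (0.49), and lost its call without any 1 of WT replicates 1, 2 and 3 and PCKO replicates 1, 2 and 3, and with the slide row as a block (adjusted p = 0.059). Psmb1 and Psmb3 were not called, at -0.0091 and -0.11.

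Of the 3 measured immunoproteasome subunits, Psmb8 and Psmb9 fell more than 2-fold in PCKO muscle under percentile scaling, and Psmb10 did not pass the test. Psmb8, which takes the place of Psmb5, read 1.26, 0.77, 1.41 and 0.82 in WT and -0.042, -0.043, -0.054 and -0.27 in PCKO muscle. Every PCKO array was below every WT array, at -1.17 ± 0.15 (2.24-fold lower, limma adjusted p = 1.67e-04). Psmb9, which takes the place of Psmb6, read 0.51, 0.50, 0.67 and 0.34 in WT and -0.94, -0.57, -0.77 and -0.62 in PCKO muscle. Its groups were also apart, at -1.23 ± 0.11 (2.35-fold lower, limma adjusted p = 1.25e-05). Psmb10, which takes the place of Psmb7, read 3.99, 4.20, 4.05 and 3.92 in WT and 4.25, 4.19, 4.12 and 4.35 in PCKO muscle. The groups of Psmb10 overlapped, at 0.19 ± 0.09 (limma adjusted p = 0.078), and without WT replicate 2 it passed (adjusted p = 0.035).

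Psmb8 and Psmb9 kept their values under quantile scaling (-1.17 and -1.22, both called). Under spike-in scaling they were negative and not called, at -0.48 (limma adjusted p = 0.15) and -0.55 (adjusted p = 0.10). Psmb10 was called higher under quantile (0.28) and spike-in scaling (0.87). Both falls held within each row of the slide, at -1.05 and -1.28 for Psmb8 and -1.26 and -1.20 for Psmb9.

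The ratio of each replacement subunit to the constitutive one it replaces does not depend on a shift common to all probes of an array. Relative to the WT mean, the log2 ratio of Psmb8 to Psmb5 was 0.25, -0.30, 0.33 and -0.28 in WT and -1.43, -1.25, -1.27 and -1.55 in PCKO muscle. It changed by -1.37. For Psmb9 to Psmb6 the WT arrays gave 0.013, 0.15, 0.052 and -0.22 and the PCKO arrays -1.41, -0.89, -1.23 and -0.98, a change of -1.13. The third ratio went the other way. Psmb10 to Psmb7 gave -0.12, 0.15, -0.073 and 0.041 in WT and 0.63, 0.49, 0.56 and 0.81 in PCKO muscle, a change of 0.62. Groups did not overlap for any of the 3 ratios. Each gave an exact permutation p = 0.029 (two-sided, n = 4, also 0.029 after Benjamini-Hochberg adjustment over the 3), the smallest the design allows. Under quantile scaling the changes were -1.97, -1.59 and 0.48. Non-overlap was common: taken singly, 36.1% of all genes were higher and 29.7% lower without overlap under percentile scaling. The first 2 ratios follow mainly from the single-gene differences of Psmb8 (-1.17) and Psmb9 (-1.23). In the third, Psmb7 differed by -0.43 and Psmb10, not called, by 0.19.

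**Figure D3:**
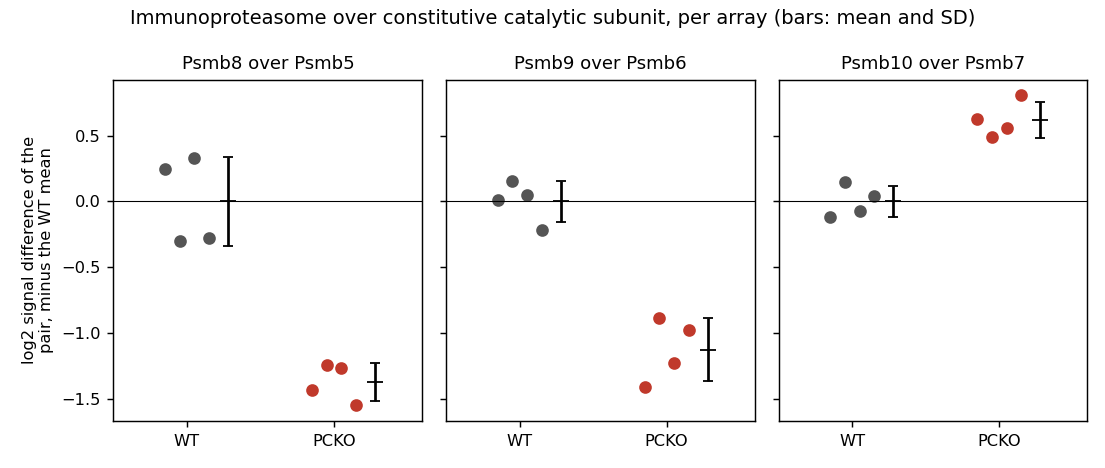
Log2 signal of an immunoproteasome subunit minus that of the constitutive subunit it replaces, per array and relative to the WT mean (vertical axis, log2 units), for 4 WT and 4 PCKO mice, with mean and SD at the right of each group. The ratios to Psmb5 and Psmb6 are lower in all 4 PCKO mice and the ratio of Psmb10 to Psmb7 is higher in all 4.

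Under percentile scaling, most markers of leukocytes, endothelium and fibroblasts were lower, as Psmb8 and Psmb9 were, and those of satellite cells were not called. Of 9 leukocyte markers tested, 6 were lower and 0 higher, where 32.7% of all genes were lower and 38.3% higher. Cd74 (-1.58) and Adgre1 (-1.36) were among the 6, and Cd3d and Cd79a were well above background on no array. The summed leukocyte signal, as log2 relative to the array's 75th percentile, was 5.01 to 5.52 in WT and 3.78 to 4.50 in PCKO mice. The 6 endothelial and 5 fibroblast markers were all lower, as were the 8 muscle fibre markers. Of the satellite cell markers 2 were tested and 0 called, Pax7 at 0.82 (above background on 4 arrays) and Cdh15 at -0.23. Spike-in scaling called 9.45% of all genes lower and 54% higher. Under it 2 leukocyte markers were lower and 1 higher, and 0 endothelial markers were called. Of the fibroblast markers 3 were lower and 0 higher, and of the satellite cell markers 0 were lower and 1, Pax7, higher. The part of these cells in the fall of Psmb8 and Psmb9 was not tested.

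Genes of interferon response and antigen presentation, the setting in which the immunoproteasome is known to act, were split. Of 14 tested, 6 were lower and 2 higher, with a median of -0.24. Of all genes 32.7% were lower and 38.3% higher, with a median of 0.056. Lower were the interferon-induced genes Ifit3 (-2.45), Ifit1 (-1.80, above background on 6 arrays) and Isg15 (-1.41), and the transcriptional regulators Nlrc5 (-1.25), Irf8 (-1.23) and Stat2 (-0.24). Higher were Erap1 (0.59), a peptide-trimming protease, and Tapbp (0.37), a loading factor for class I molecules. Tap2, H2-K1, H2-D1 and B2m were not called, at 0.19, 0.20, -0.25 and -0.38, and Tap1 and Irf7 were not tested. Under spike-in scaling 3 were lower and 5 higher, where 9.45% of all genes were lower and 54% higher.

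Promoter sequence is shown for 6 genes that the comparison turns on, as the 250 bases before the RefSeq start (GRCm38.p6), 5′ to 3′ on the gene's strand. Of the 48 genes, 40 had an entry that was used. Entries of proteasome genes on 1 chromosome were left out, while the count of all promoters kept that chromosome. Letters in capitals match 1 of 6 motifs searched on both strands: TGACNNNGC, the core of the element bound by Nfe2l1 and Nfe2l2; CCAAT, the box bound by the factor NF-Y; GGGCGG, the GC box bound by factors of the Sp family; TGACGTCA, the element bound by the CREB family, after which CBP is named; GAAANNGAA, from interferon response elements; and TTCNNNGAA, the STAT element. Matches that overlap run together. The first 3 genes shown are both fallen immunoproteasome subunits and Psmb5. The window of Psmb8 lies at chr17:34197945-34198194, plus strand, Psmb9 at chr17:34187331-34187580, minus strand, and Psmb5 at chr14:54617996-54618245, minus strand.
Psmb8: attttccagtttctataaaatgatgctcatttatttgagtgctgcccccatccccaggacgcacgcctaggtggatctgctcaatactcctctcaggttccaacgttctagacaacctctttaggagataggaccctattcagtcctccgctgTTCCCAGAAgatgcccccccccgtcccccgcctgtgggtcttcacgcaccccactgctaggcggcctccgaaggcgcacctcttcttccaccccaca
Psmb9: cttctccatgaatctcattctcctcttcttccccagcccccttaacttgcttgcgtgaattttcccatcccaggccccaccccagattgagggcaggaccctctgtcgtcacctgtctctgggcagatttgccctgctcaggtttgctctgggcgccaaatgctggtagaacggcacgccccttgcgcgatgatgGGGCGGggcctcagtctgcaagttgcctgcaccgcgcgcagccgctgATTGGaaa
Psmb5: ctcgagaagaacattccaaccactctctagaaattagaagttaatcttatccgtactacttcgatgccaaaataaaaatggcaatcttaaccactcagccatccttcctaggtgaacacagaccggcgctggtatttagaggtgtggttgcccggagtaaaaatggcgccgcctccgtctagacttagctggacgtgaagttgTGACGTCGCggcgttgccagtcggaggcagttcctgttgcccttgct

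The window of Psmb8 held TTCNNNGAA, starting 97 bases before the start. The window of Psmb9 held GGGCGG at 55 bases and, on the opposite strand, CCAAT at 8 bases. The window of Psmb5 held TGACNNNGC at 47 bases. None of these 3 windows held GAAANNGAA or TGACGTCA. The motifs were about as frequent in proteasome promoters as elsewhere except for GGGCGG, which 53.5% of the 43 proteasome promoters held against 32.7% of 32851 promoters of the same length. TGACNNNGC stood in 11.6% against 10.2%, CCAAT in 32.6% against 33.8%, GAAANNGAA in 7.0% against 7.1%, TTCNNNGAA in 4.7% against 7.0% and TGACGTCA in 0% against 1.5%. Of the 10 higher genes with an entry 2 held TGACNNNGC, Psmb5 and Psmd9, and of the 12 lower ones 1 did, Psmd12. CCAAT stood in 1 of the 10 and 5 of the 12, and GGGCGG in 6 of each. A match is a match of letters and no evidence of binding.

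The base of the regulatory particle showed small differences under percentile scaling. Of the 6 ATPases, the ring that unfolds substrates, 0 were higher and 1 lower (all genes 38.3% and 32.7%). The median of the 6 was -0.088, with a range from -0.20 to 0.11. Under quantile scaling 5 were higher and 0 lower (all genes 43.3% and 29%), and under spike-in scaling 3 and 0 (all genes 54% and 9.45%). Psmc2 had the largest difference and was not called: it read 7.14, 7.37, 7.46 and 7.53 in WT and 7.23, 7.08, 7.30 and 7.09 in PCKO muscle, with overlap, at -0.20 ± 0.10 (limma adjusted p = 0.11, and 0.024 without WT replicate 1). Psmc1, the 1 called lower, differed by -0.18 ± 0.07 (limma adjusted p = 0.038), but its second probe gave 0.10 and quantile scaling turned it to 0.29, called higher. It also lost its call without WT replicate 1, 2 or 4 or PCKO replicate 1, 2 or 4, and with the slide row as a block (adjusted p = 0.051).

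Of the other 3 base subunits with a Psm symbol, Psmd1, a scaffold, was lower. It read 6.93, 6.86, 7.09 and 7.02 in WT and 6.79, 6.59, 6.85 and 6.63 in PCKO muscle. The highest PCKO array was just under the lowest WT array, at -0.26 ± 0.09 (limma adjusted p = 0.028), with the sign turned under quantile (0.14) and spike-in scaling (0.42), neither called. The call was lost without WT replicate 3 or 4 or PCKO replicate 2 or 4. Psmd2, a docking subunit for ubiquitin-like domains, and Psmd4, a ubiquitin receptor, were not called at 0.10 and 0.0058, and both were called higher under the other scalings.

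The lid holds the deubiquitinating subunit Psmd14. Of its 8 subunits with a Psm symbol, 1 was higher and 4 were lower under percentile scaling (all genes 38.3% and 32.7%). The median of the 8 was -0.21. Under quantile scaling 2 were higher and 3 lower (all genes 43.3% and 29%), and under spike-in scaling 2 and 0 (all genes 54% and 9.45%). Psmd8 had the largest fall, from 4.97, 4.70, 5.10 and 4.75 in WT to 4.03, 4.19, 3.98 and 3.88 in PCKO muscle. Its groups were wide apart, at -0.86 ± 0.11 (1.82-fold, limma adjusted p = 1.54e-04), and it stayed lower under quantile scaling (-0.73, called) and at -0.18 under spike-in scaling (adjusted p = 0.62). Psmd3 went up, from 7.65, 7.73, 7.73 and 7.82 in WT to 8.16, 8.16, 8.18 and 8.26 in PCKO muscle. Every PCKO array was above every WT array, at 0.46 ± 0.07 (1.37-fold, limma adjusted p = 3.23e-04), with 0.94 under quantile and 1.14 under spike-in scaling.

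The remaining lower lid genes were Psmd6 (-0.50), Psmd12 (-0.35) and Psmd11 (-0.27), each without overlap. Psmd6 and Psmd11 stayed lower under quantile scaling, at -0.26 and -0.21, while Psmd12 stood at 0.034, and a second probe of Psmd12 gave -0.16. All 3 were positive and not called under spike-in scaling. Psmd14 was not called, at -0.14 ± 0.13, with WT replicate 1 as the lowest WT array (3.62 against 4.04 to 4.15), and without that array it passed as lower (limma adjusted p = 0.029). Psmd7 and Psmd13 were not called, at -0.13 and 0.11.

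Of the 4 activators, alternative caps that open the core without ATP, 2 were higher and 2 lower under percentile and quantile scaling. Of all genes 38.3% and 32.7% were so called under percentile and 43.3% and 29% under quantile scaling. Under spike-in scaling 2 activators were higher and 0 lower (all genes 54% and 9.45%). The Psme1 and Psme2 subunits form 1 ring, induced by interferon together with the immunoproteasome in many cells, and both rose. Psme1 read 4.45, 4.29, 4.25 and 4.08 in WT and 4.89, 4.87, 4.86 and 4.80 in PCKO muscle. Its groups did not overlap, at 0.59 ± 0.09 (1.50-fold, limma adjusted p = 3.61e-04). Psme2 read 5.50, 5.55, 5.65 and 5.66 in WT and 6.12, 5.95, 6.07 and 5.98 in PCKO muscle. It was likewise higher in all 4 PCKO mice, at 0.44 ± 0.08 (1.36-fold, limma adjusted p = 7.56e-04), and a second probe gave 0.56. Both were higher under quantile (0.74 and 0.72) and spike-in scaling (1.27 and 1.12).

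Psme4 and Psme3, whose products cap the core in the nucleus, were lower. Psme4 had the largest difference of the 46 genes under percentile scaling, from 3.69, 3.63, 4.00 and 3.71 in WT to 2.70, 2.43, 2.41 and 2.31 in PCKO muscle. The gap between its groups was wide, at -1.29 ± 0.11 (2.45-fold, limma adjusted p = 1.48e-05), with -0.97 at a second probe, -1.26 under quantile scaling and -0.61 under spike-in scaling (adjusted p = 0.069). Psme3 differed by -0.28 ± 0.09 (limma adjusted p = 0.018), read 2.30, 2.33, 2.47 and 2.50 in WT and 1.97, 2.18, 2.08 and 2.24 in PCKO muscle, and did not overlap. Without PCKO replicate 1 its adjusted p was 0.052, and under spike-in scaling it stood at 0.40, not called. Psmf1, an inhibitor of the core in the test tube, was not called: it read -0.96, -0.96, -0.84 and -1.11 in WT and -1.13, -0.78, -0.92 and -0.74 in PCKO muscle, at 0.073 ± 0.105 (limma adjusted p = 0.55). The promoter of Psme1 is shown as that of the activator that rose most, at chr14:55578244-55578493, plus strand, with GGGCGG 109 bases before the start.
Psme1: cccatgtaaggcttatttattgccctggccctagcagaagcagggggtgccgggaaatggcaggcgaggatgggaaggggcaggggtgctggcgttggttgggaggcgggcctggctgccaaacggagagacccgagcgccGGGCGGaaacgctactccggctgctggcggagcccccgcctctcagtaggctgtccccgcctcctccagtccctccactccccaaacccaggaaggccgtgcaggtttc

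The assembly chaperones held 6 of the 11 higher genes. All 3 base chaperones with a Psm symbol, which bind the ATPases while the base is built, were higher without overlap under all 3 scalings. Of all 12739 genes, 4603, 5217 and 6220 were higher without overlap under percentile, quantile and spike-in scaling, and 38.3%, 43.3% and 54% were called higher. The medians of the 3 base chaperones were 0.87, 0.85 and 1.56, against 0.056, 0.15 and 0.74 for all genes. Psmd9 read 0.37, -0.12, 0.70 and -0.20 in WT and 1.22, 1.04, 1.18 and 0.99 in PCKO muscle. Its WT arrays were spread widely, with replicates 1 and 3 above 2 and 4, and all 4 PCKO arrays were higher, at 0.92 ± 0.19 (1.89-fold, limma adjusted p = 0.0025). It was not called in the second slide row alone (0.83, adjusted p = 0.10). Psmd10 read 1.24, 1.25, 1.21 and 1.09 in WT and 2.19, 1.93, 2.04 and 2.12 in PCKO muscle. These 2 sets were narrow and far apart, at 0.87 ± 0.08 (1.83-fold, limma adjusted p = 1.85e-05). Psmd5 read 1.62, 1.99, 1.83 and 1.88 in WT and 2.37, 2.38, 2.34 and 2.36 in PCKO muscle. The PCKO arrays of Psmd5 agreed closely and lay above all WT arrays, at 0.53 ± 0.09 (1.45-fold, limma adjusted p = 6.59e-04). Second probes gave 0.76 for Psmd9 and 0.80 for Psmd10.

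The 4 core chaperones with a Psm symbol work as the pairs Psmg1 with Psmg2 and Psmg3 with Psmg4 to build the alpha ring. Of these, 3 were called higher under all 3 scalings, where 38.3%, 43.3% and 54% of all genes were called higher. Psmg4 read 1.26, 1.40, 1.03 and 1.50 in WT and 2.24, 2.14, 2.03 and 2.22 in PCKO muscle. It was higher in all 4 PCKO mice, at 0.86 ± 0.11 (1.82-fold, limma adjusted p = 1.41e-04). Its partner Psmg3 read 2.68, 2.87, 2.76 and 2.93 in WT and 3.05, 3.17, 3.24 and 3.24 in PCKO muscle. Those groups did not overlap either, at 0.37 ± 0.08 (1.29-fold, limma adjusted p = 0.0039). Psmg1 read 4.34, 4.49, 4.41 and 4.82 in WT and 4.97, 4.81, 4.89 and 5.04 in PCKO muscle. WT replicate 4 of Psmg1 reached just above the lowest PCKO array, at 0.41 ± 0.11 (1.33-fold, limma adjusted p = 0.011), and a second probe gave 0.45. Psmg2, the partner of Psmg1, was not called, at -0.12 ± 0.09 (limma adjusted p = 0.28) with overlapping groups, -0.094 under quantile and 0.56 under spike-in scaling. Whether Psmg1 and Psmg2 differ in response was not tested.

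**Figure D4:**
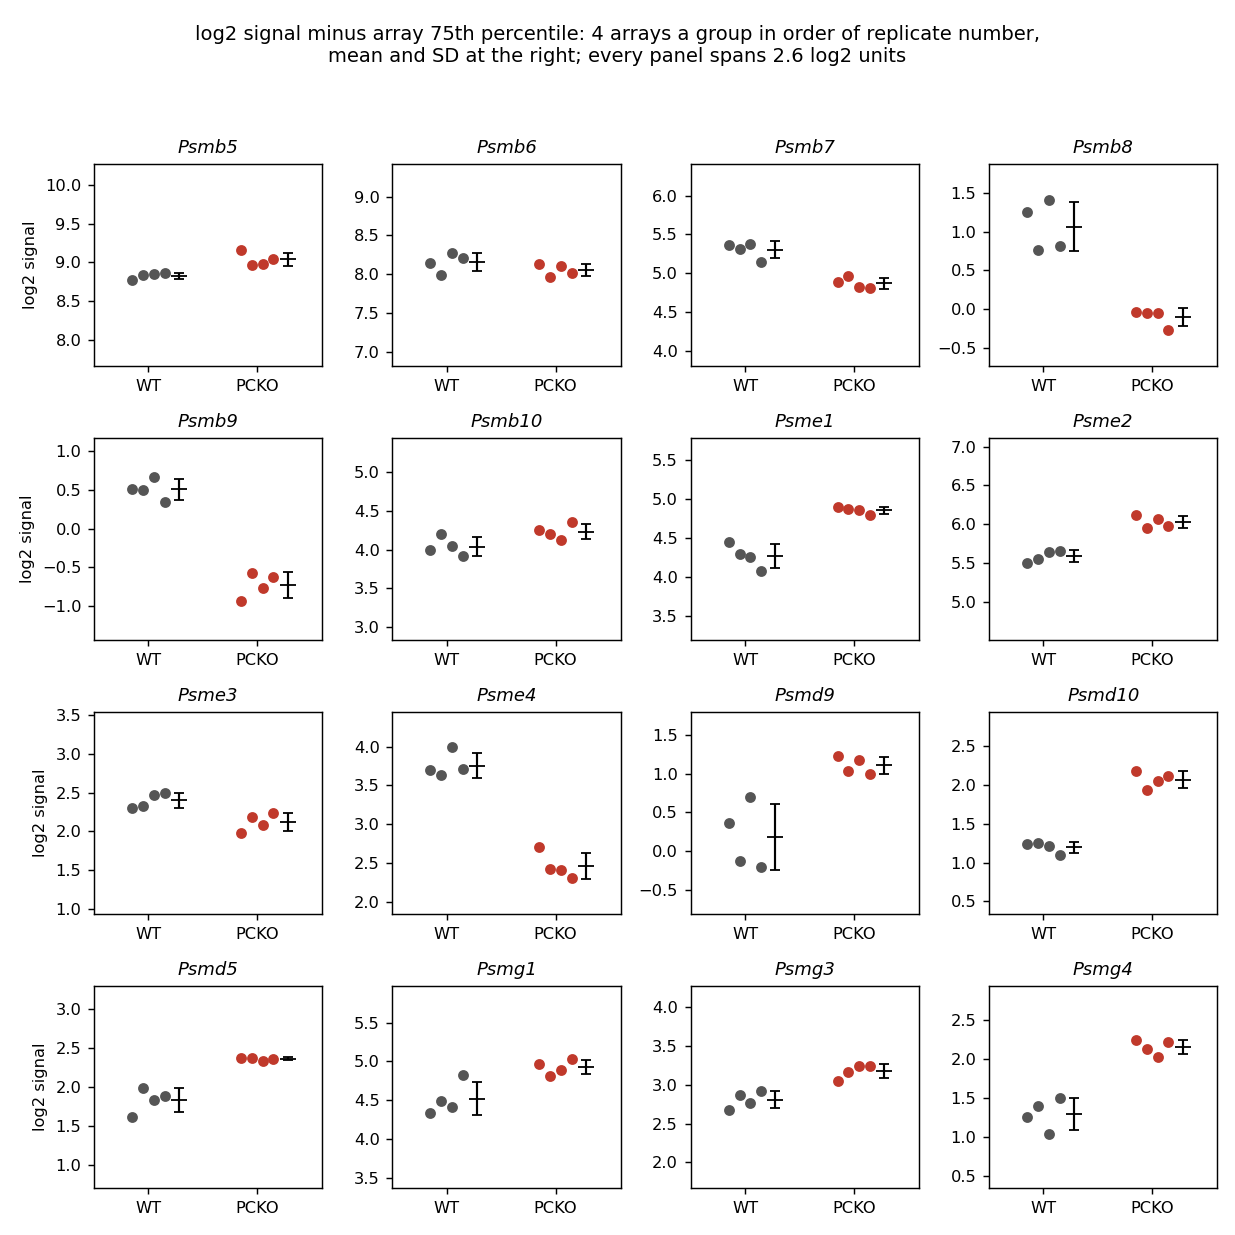
Levels (vertical axes, log2 signal minus array 75th percentile) of 16 proteasome genes in 4 WT and 4 PCKO mice, 1 point per mouse in order of replicate number, with mean and SD at the right of each group; every panel spans the same number of log2 units. Psmb8, Psmb9 and Psme4 drop by more than 1 unit, and Psmd9, Psmd10 and Psmg4 rise by 0.86 to 0.92.

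Promoters are shown for Psmd9 and Psmd10, the chaperone genes that rose most. The window of Psmd9 lies at chr5:123227940-123228189, plus strand, and Psmd10 at chrX:140956712-140956961, minus strand. In Psmd9 the 3 matches were GAAANNGAA at 159 bases before the start, TGACNNNGC at 31 bases and GGGCGG, on the opposite strand and overlapping it, at 26 bases. In Psmd10 the 4 matches were CCAAT at 230, 47 and 24 bases, the last 2 on the opposite strand, and GGGCGG at 79 bases.
Psmd9: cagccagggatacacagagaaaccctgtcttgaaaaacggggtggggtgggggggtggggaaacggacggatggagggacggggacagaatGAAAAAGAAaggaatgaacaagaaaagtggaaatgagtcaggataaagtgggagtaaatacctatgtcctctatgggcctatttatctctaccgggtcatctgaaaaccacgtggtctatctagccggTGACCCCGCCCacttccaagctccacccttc
Psmd10: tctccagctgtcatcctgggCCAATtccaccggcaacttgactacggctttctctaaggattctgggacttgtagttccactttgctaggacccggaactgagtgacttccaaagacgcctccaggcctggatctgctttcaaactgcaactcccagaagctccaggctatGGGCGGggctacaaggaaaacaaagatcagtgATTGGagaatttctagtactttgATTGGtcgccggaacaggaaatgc

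Genes that act on the proteasome without bearing a Psm symbol spread more widely than the Psm genes, with an SD of their differences of 0.87 against 0.48 (1.17 for all genes). Of 18 tested, 6 were higher and 5 lower under percentile scaling, near the 38.3% and 32.7% of all genes. The counts were 9 and 5 under quantile (all genes 43.3% and 29%) and 11 and 2 under spike-in scaling (all genes 54% and 9.45%). Zfand5, which binds the proteasome and speeds degradation, read 7.34, 7.53, 7.55 and 7.13 in WT and 5.35, 5.25, 5.30 and 5.31 in PCKO muscle. The groups were about 2 units apart, at -2.08 ± 0.10 (limma adjusted p = 4.34e-07), and it stayed called lower under quantile (-1.74) and spike-in scaling (-1.40), with -1.25 at a second probe. Ddi2, the protease that releases the active form of Nfe2l1, read 2.81, 2.54, 3.26 and 2.43 in WT and 0.75, 0.71, 0.96 and 0.74 in PCKO muscle. It was lower in every PCKO mouse, at -1.97 ± 0.17 (limma adjusted p = 1.35e-05), with -1.89 at a second probe and -1.28, still called, under spike-in scaling. Nfe2l1, the transcription factor that raises proteasome genes when the proteasome is impaired, read 0.42, 0.48, 0.48 and 0.087 in WT and -0.71, -0.96, -0.80 and -0.85 in PCKO muscle. Its groups did not overlap, at -1.20 ± 0.11 (limma adjusted p = 1.60e-05), and under spike-in scaling it stood at -0.52 (adjusted p = 0.13). Nfe2l2, a related factor, differed by -0.68 and Uchl5, a deubiquitinase of the base, by -0.29, both called.

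Higher in this set were Ube3a and Fbxo7 above all. Ube3a, a ubiquitin ligase found with the proteasome, read 1.21, 1.53, 1.42 and 1.56 in WT and 2.39, 2.28, 2.08 and 2.32 in PCKO muscle. The difference was 0.83 ± 0.10 (limma adjusted p = 1.21e-04), without overlap. Fbxo7, an F-box protein that binds Psmf1, read 4.24, 4.40, 4.29 and 4.63 in WT and 5.25, 5.17, 5.21 and 5.17 in PCKO muscle. It too was higher in all 4 PCKO mice, at 0.81 ± 0.09 (limma adjusted p = 8.04e-05). Zfand2a (0.73), Txnl1 (0.65), Ube3c (0.52) and the deubiquitinase Usp14 (0.42) were also called higher, and all 6 were higher under the other scalings. A second Usp14 probe gave 0.19 and did not pass. Pomp, the chaperone that matures the beta ring, read 5.37, 5.58, 5.53 and 5.65 in WT and 5.46, 5.46, 5.55 and 5.57 in PCKO muscle. Its groups overlapped at -0.021 ± 0.080 (limma adjusted p = 0.82), while a dimmer second probe gave 0.49 and passed, so its 2 probes disagree.

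Of 15 genes that supply ubiquitin or carry substrates to the proteasome, 6 were higher and 5 lower, near the 38.3% and 32.7% of all genes. Uba1, the main ubiquitin-activating enzyme, was the most raised (0.92 ± 0.08, limma adjusted p = 1.14e-05), followed by Nploc4 (0.60). The polyubiquitin gene Ubb was higher (0.32), while a second probe gave -0.072 and did not pass. The shuttling factor Rad23b was lower (-0.51) and the shuttling factors Ubqln1 and Ubqln2 higher (0.35 and 0.45). Under quantile scaling 9 of the 15 were higher and 2 lower (all genes 43.3% and 29%), and under spike-in scaling 8 and 0 (all genes 54% and 9.45%).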

How the data were processed

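EDL muscle RNA of 4 WT and 4 PCKO mice was hybridised to Agilent single-colour mouse arrays, per the labels, all on 1 slide with 2 arrays of each group in each of 2 rows. The scanner files hold intensity values from Feature Extraction 10.7.3.1, background-subtracted within each array and not normalized between arrays, per the file headers. How the log2 values of the deposited series table were made is not stated in the labels or file headers. Each of its columns followed its own array best (r of at least 0.9991, against at most 0.995 with another), its column medians ran from 5.45 to 5.52, and it lists 32622 of 55681 non-control probes. Its background treatment stays unknown, and it was used only as an alternative.

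Control spots and spots marked as outliers were left out, spots of 1 probe averaged, and log2 intensity set against the array's 75th percentile. A probe was tested if well above background on at least 4 arrays. Accessions were matched to RefSeq symbols (GRCm38.p6): 26582 probes had 1 symbol, none several, and 29099 none. The brightest tested probe stood for a gene. Of the 46 genes, 11 had more than 1 tested probe, and in 9 of those all probes had the same sign. Related genes that share probe sequence were not separated. Promoter sequences are RefSeq's, from the same build.

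Differences were tested in R 4.3.3 with the two-sided moderated test of limma 3.58.1, with Benjamini-Hochberg adjustment over 12739 genes and a threshold of 0.05. The fit was first checked on simulated data, with changes added to a small part of the genes. That check used independent noise on values already scaled, so it cannot speak to the choice of scaling or to error that genes of an array share. Ratios were compared by exact permutation over the 8 arrays. Deviations of same-numbered arrays of the 2 groups correlated weakly, at 0.053 to 0.12. Each value was above the highest with another number (0.021 to 0.046), so a slight pairing is not excluded. The replicate number was not a term of the main fit and was run as a block among the alternatives. The number of arrays limits the precision. The genes, lists and settings were chosen with earlier results of these data known. Values by mouse are given for genes called alike under all 3 scalings, the largest difference in each role, the catalytic subunits, and from the associated set Nfe2l1, Pomp and the 2 largest calls in each direction. Those of Psme3 were added after its values were seen, as were the members named from the interferon, marker and ubiquitin lists. Some genes of these lists are counted but not reported here by name. The alternatives are given with the closing observations. The spike-in setting without PCKO replicate 4 was chosen after seeing the data. For normexp, the median spot signal was used.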

Additional observations from a re-analysis of the deposited data

Results flagged for a closer look

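Within each group of 4 mice, the highest and lowest array of each of the 46 proteasome genes was checked for its distance from the other 3 (Dixon's test at its 95% level). This gave 3 arrays over 92 groups, and chance alone marks about 1 group in 20. Psma1 in WT replicate 3 stood at 6.31 (6.3063 before rounding), where the other WT arrays were at 6.02 to 6.07. Psmb8 in PCKO replicate 4 stood at -0.27 (-0.2724), where the other PCKO arrays were at -0.054 to -0.042, and without that array Psmb8 was still called lower. Psmd3 in PCKO replicate 4 stood at 8.26 (8.2554), where the others were at 8.16 to 8.18, and without it Psmd3 was still called higher.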

How the results depend on the processing

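Against 11 proteasome genes higher and 14 lower, quantile scaling gave 27 and 7, spike-in centring 24 and 0, spike-in centring with each gene's own variance 18 and 1, and spike-in centring without PCKO replicate 4 gave 14 and 1. Normexp background gave 18 and 4, the deposited values 22 and 4 (35 of the genes listed), the first slide row alone 8 and 6, and the second row alone 5 and 6. Of all 12739 genes the main fit called 4880 higher and 4171 lower, and normexp 4709 and 3628. The first row alone called 3581 and 3104 of them, and the second row 3471 and 3104. The deposited values called 3429 and 2388 of 8312 genes. Spike-in centring with each gene's own variance called 6180 and 968 of the 12739, and without PCKO replicate 4 it called 5841 and 1275. At 0 lower calls under spike-in centring, Psme4 had the smallest adjusted p among negative differences, 0.069. Leaving out each mouse gave 9 to 11 higher and 11 to 15 lower, against 4589 to 4865 and 3936 to 4058 of all genes. With the replicate number or the slide row as a block, 10 were higher and 12 lower. Of all genes, the replicate block called 4791 and 4169 and the row block 4853 and 4125. Psmb2 and Psmc1 lost their call under both blocks, Psmb5 under the replicate block, and Psmb4 under the row block and with outlier spots kept. The remaining settings gave 9 to 11 higher and 11 to 15 lower, against 4573 to 4936 and 3806 to 4231 of all 11596 to 20145 genes tested. The causes of these moves were not tested.

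Of 1139 single-gene values under other settings, 948 kept their call or stayed uncalled (77 of these changed sign with neither value called), 88 lost the call, 47 gained it and 56 changed sign with a call on 1 side. In that last group, quantile scaling gave Psma2 0.40, Psma7 0.39, Psmb1 0.25, Psmb3 0.36, Psmb6 0.37, Psmc1 0.29, Psmc2 0.25, Psmd1 0.14 and Psmd12 0.034. Spike-in centring, with the moderated or the gene's own variance, gave Psma3 0.068, Psma4 0.66, Psma6 0.36, Psma7 0.67, Psmb1 0.67, Psmb2 0.49, Psmb3 0.57, Psmb7 0.25, Psmc1 0.50, Psmd1 0.42, Psmd6 0.18, Psmd11 0.41, Psmd12 0.34 and Psme3 0.40. Without PCKO replicate 4 it gave Psma6 0.27, Psmb2 0.32, Psmb7 0.14, Psmc1 0.38, Psmd1 0.32, Psmd6 0.038, Psmd11 0.30, Psmd12 0.23 and Psme3 0.23. The deposited values gave Psma2 0.39, Psma4 0.19, Psma6 0.023, Psma7 0.41, Psmb1 0.25, Psmb3 0.43, Psmc1 0.41, Psmc2 0.26, Psmd1 0.22 and Psmd12 0.071. Normexp gave Psmc1 0.12, Psmd1 0.045 and Psmd11 0.025. None of the 11 higher genes changed sign in any setting run. Psmd10, Psmd3, Psmd5, Psme1 and Psmg4 kept their call in every setting that measured them.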
